A study of Danio rerio with 4 samples.

Results

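The genes described here encode the proteins of the cytosolic ribosome, and their transcripts were measured in precipitates aimed at the DEAD-box RNA helicase Ddx3xb from early zebrafish embryos. Members were the genes whose zebrafish Ensembl symbol begins with rpl, rps or rplp and a digit, S6 kinase genes left out, with at least 1 RPKM (reads per kilobase, relative to the read total) in either table. The rule found 73 genes of 13341 that reached 1 RPKM and of 27205 listed in either table. Of these 73, 41 belong to the large and 32 to the small subunit by symbol.

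Per the labels, zebrafish embryos of wild-type genotype had received mRNA for FLAG-tagged Ddx3xb by injection at both ages, and RNA was recovered with anti-FLAG beads at 2 or 4 hours post-fertilization (hpf), with 2 biological replicates at each age and 4 samples in all. The descriptions of the 4 samples also carry the word control, with nothing to say of what. What was analysed is a mean RPKM per age, made by the authors, so that each gene has 1 value per table, no replicate spread or n stands behind a value, no difference could be tested, and the depth of the libraries is unknown. Neither an input nor a mock precipitate is among the samples, which makes a value an abundance in the precipitate and not an enrichment. In whole-embryo material, fewer cells with a transcript, less transcript per cell and less of it on the beads cannot be told apart. The tables are called earlier (2 hpf) and later (4 hpf) by the age in their labels, although all 4 listed early zygotic marker genes were higher in the earlier table (summed level 235 against 40.3 RPKM) and all 7 listed maternal and egg marker genes were higher in the later (134 against 546 RPKM). Whether the tables are exchanged or wrongly labelled was not tested. If they are exchanged, every difference, count of higher or lower genes and change of rank between the tables given here turns its direction. Of 8 listed marker genes of differentiated tissue, 1 reached 1 RPKM.

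Each ribosome is built from a large subunit, which joins amino acids, and a small subunit, which reads the mRNA, and nearly all of their proteins are present in a single copy per ribosome. The mRNAs of these proteins begin with a tract of pyrimidines, the 5′ terminal oligopyrimidine or TOP motif, through which their translation is switched together by mTOR signalling and LARP1, as known mainly from mammals. Zebrafish eggs carry a large maternal store of ribosomes, and the embryo's own genome becomes active during the blastula stages. Ddx3x proteins unwind RNA and act in translation initiation.

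The median level of the ribosomal protein genes was above that of all genes in both tables, and single members lay far apart. The members' median was 13.3 RPKM in the earlier table, with an interquartile range of 8.70 to 23.4, and 12.3 RPKM in the later table, with an interquartile range of 5.19 to 21.5. Over all 13341 genes it was 2.95 RPKM (interquartile range 1.38 to 7.56) and 4.59 RPKM (1.65 to 13.8). The upper quartile exceeded the lower by 2.68-fold and 4.13-fold among members, less than the 5.49-fold and 8.35-fold of all genes. The highest member was RPS14 (ENSDARG00000036629), a protein of the small subunit's platform, at 312 RPKM in the earlier table and 303 RPKM in the later table. The lowest member in the later table was 1 of the 2 copies of RPS26, at 3.66 and 0.862 RPKM. RPKM is a level per length, and on that scale RPS14 exceeded that copy by 351-fold in the later table. How reads common to near-identical copies were counted is unknown, which limits this ratio. The ratio compares genes and not proteins, since the other RPS26 copy was at 4.38 RPKM there. Of the RPKM summed over each table, a sum that a few entries dominate, the 73 genes took 0.255% (earlier) and 0.323% (later).

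A small set of members stood far above the rest in both tables. After RPS14 came RPL21 at 151 and 179 RPKM in the earlier and later table, RPL6 at 123 and 139 RPKM, and RPL35, which lies by the exit of the peptide tunnel, at 101 and 115 RPKM. Next came the acidic stalk gene rplp2l at 88.6 and 73.5 RPKM. RPL29, at 65.0 and 48.9 RPKM, followed in the earlier table, whereas in the later a copy of RPL5 stood above it at 65.5 RPKM. The levels of the members were ordered alike in both tables, with a Pearson correlation of log2(RPKM + 1) of 0.92 and a Spearman correlation of 0.87 across the 73 genes, which share libraries, scaling and the authors' counting. Near the lower limit of the rule, members just inside were RPS15A at 3.22 and 2.05 RPKM, that RPS26 copy, RPL34 at 3.73 and 1.71 RPKM, and RPS16 at 4.30 and 3.30 RPKM. The single matched gene outside was rps11l, at 0.273 RPKM in the earlier table and listed in that table alone.

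**Figure D1:**
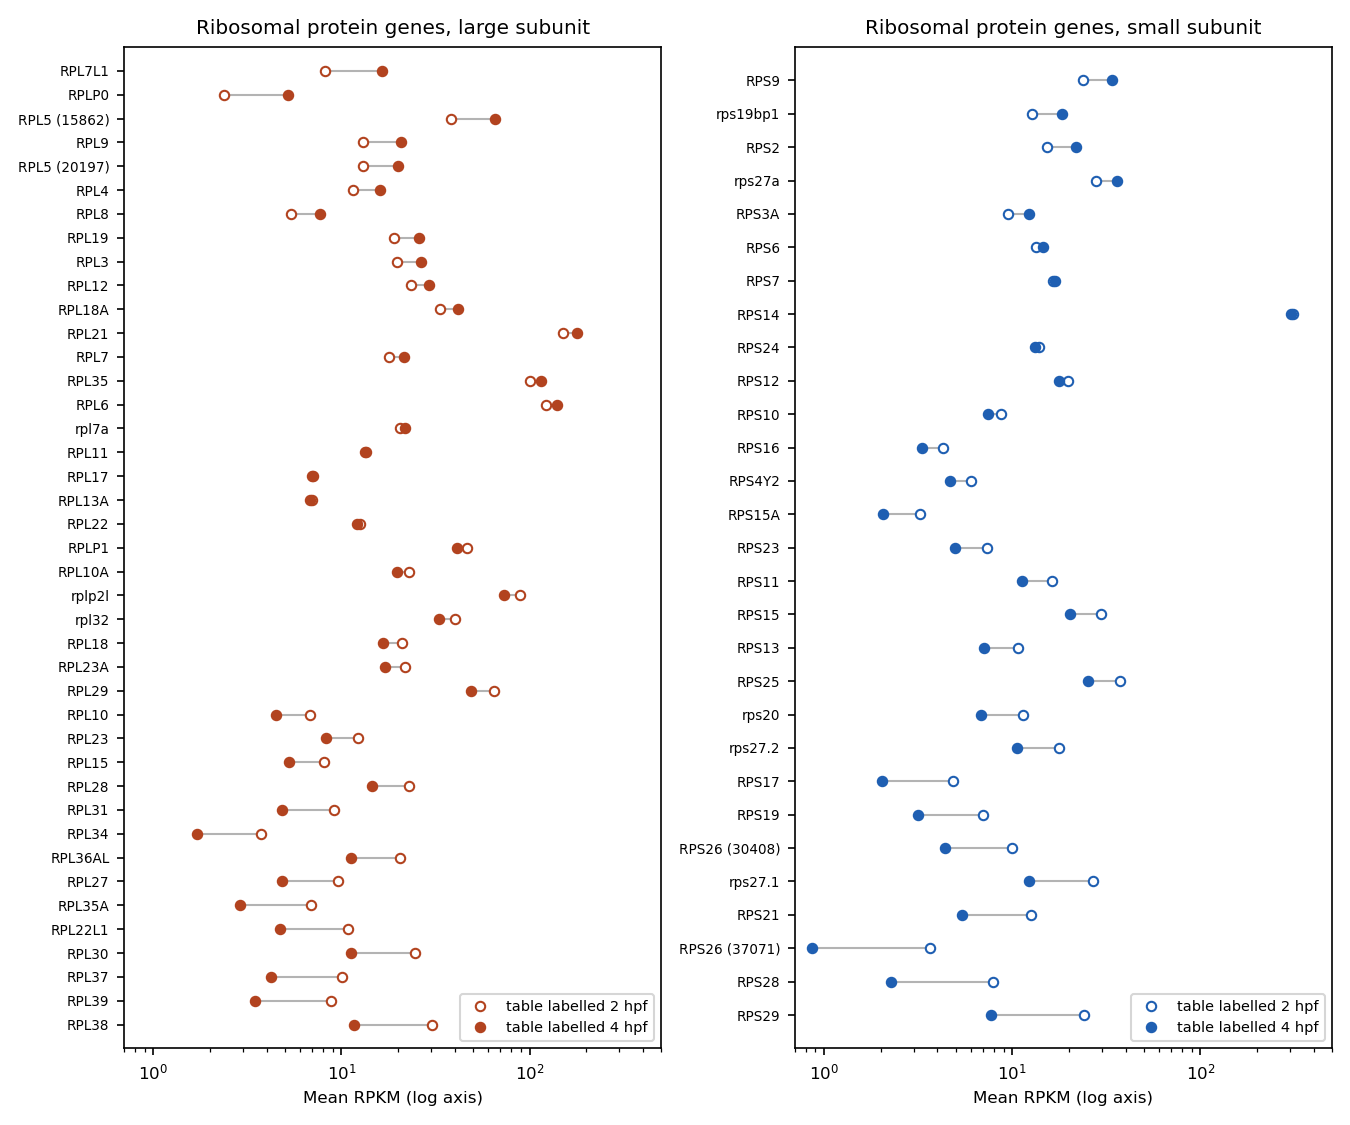
Mean RPKM (log axis) of 70 of the 73 ribosomal protein genes in the earlier table (open points) and in the later (filled points), by subunit and ordered by the difference of log2(RPKM + 1); the last 5 digits of the gene ID tell copies of 1 symbol apart. Members at the bottom, such as RPS29 and RPL38, lay to the left in the later table, and RPS14, RPL21, RPL6 and RPL35 stood to the right of the other members in both tables.

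The ages were compared by the difference of log2(RPKM + 1), later minus earlier table, a scale on which a difference of 1 is 2-fold and which understates the difference of low genes. Ribosomal protein genes lay low in this comparison. Of the 73 members, 12 were at least 2-fold lower in the later table, a share of 16.4%, where 10.9% of all 13341 genes were. None of the 73 was at least 2-fold higher, where 33.0% of all genes were. A difference below 0 was found for 48 members (65.8%) and for 27.0% of all genes. The median difference of the members was -0.26, against 0.66 for all genes. These counts and the sign of the median depended on how the tables were scaled. With both tables brought to an equal sum, 3 members were at least 2-fold lower and 4 at least 2-fold higher, against 8.10% and 48.1% of all genes. When the median ratio of well-measured genes was set to 1, 43 members were at least 2-fold lower and none higher, against 19.0% and 2.60% of all genes, so that the lack of members at least 2-fold higher then lay near the background. The members' median was 0.12 with an equal sum and -1.10 with the median ratio set to 1.

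The place of the members relative to other genes varied less over the scalings. Against the median of all genes, 31 members lay at least 2-fold below (42.5%) and none at least 2-fold above, where 21.2% and 7.85% of all genes did. Between 68 and 72 of the 73 members lay below the median of all genes under the deposited scaling and each of 4 others (equal sum, equal sum without the 100 highest genes, equal median ratio and quantile normalization), and 68 did so under all 5. The members' median minus that of all genes lay between -0.84 and -1.29 over the same 5 scalings, but was -0.49 with a pseudocount of 5 and -0.32 without a filter on low values. Except for quantile normalization, the alternative scalings multiply a whole table by a constant. That moves all differences in the same direction, those of low genes by less, so they could hardly change the members' place. Ranks need no scaling at all. The median rank of the members among all listed genes went from 1861 in the earlier table to 3628 in the later table, and 71 of 73 had a lower place there, against 41.2% of all genes. Members among the 1000 highest entries numbered 22 of 73 in the first table and 7 of 73 in the second. Of all 13341 genes, 1000 hold such a place in each table by definition. The 2 members with a higher place were RPLP0, from rank 7568 to 6274, and RPL7L1, from rank 3063 to 2873.

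The distance from other genes was also seen among genes of like abundance. With the mean of both log2(RPKM + 1) values between 3 and 4, the median difference was 1.01 over 2122 genes and -0.13 over the 18 members among them. Between 4 and 5 it was 1.15 over 1282 genes and -0.09 over 23 members, and between 2 and 3 it was 0.83 over 3023 genes and -0.79 over 17 members. Fewer than 10 members lay in each of the remaining levels.

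**Figure D2:**
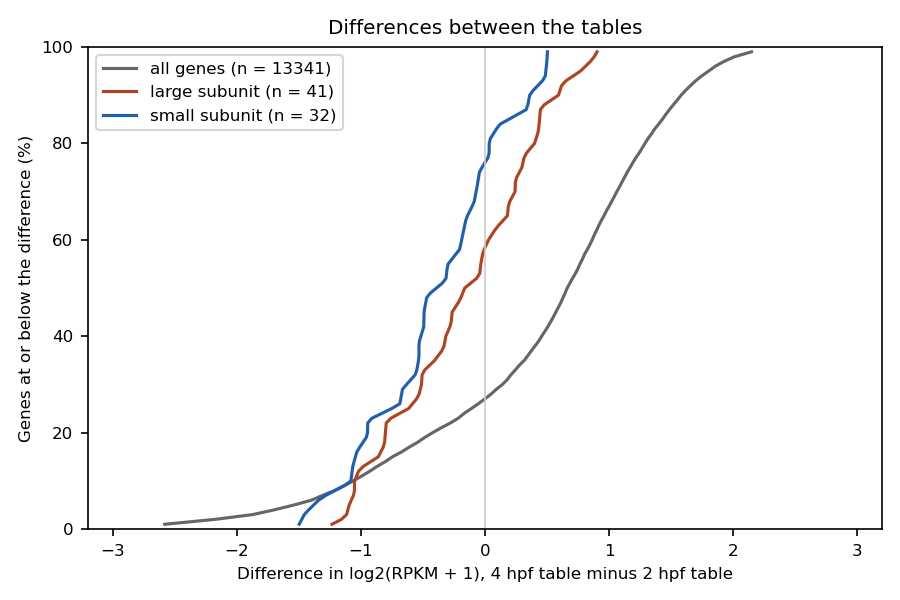
Share of genes (vertical axis, percent) at or below each difference in log2(RPKM + 1) between the later table and the earlier (horizontal axis), drawn from percentiles 1 to 99 for all 13341 genes, 41 large subunit and 32 small subunit genes. Both subunit curves lie left of the curve of all genes through its upper part, with medians of -0.16 and -0.39 against 0.66, and cross it near a difference of -1.

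Large and small subunit genes overlapped widely. The median level was 18.0 and 16.0 RPKM for the large and 12.6 and 10.9 RPKM for the small subunit, in the earlier and later table. Differences ran from -1.31 to 0.93 with an interquartile range of -0.62 to 0.30 in the large subunit, and from -1.52 to 0.51 with an interquartile range of -0.75 to -0.02 in the small. Members at least 2-fold lower in the later table numbered 6 of 41 (14.6%) and 6 of 32 (18.8%), against 10.9% of all genes. Members with a difference below 0 numbered 24 of 41 (58.5%) and 24 of 32 (75%), against 27.0% of all genes. The medians of -0.16 and -0.39 lay 0.23 apart, a gap that went to -0.06 with the median ratio set to 1 and to -0.05 after quantile normalization. Setting the median ratio to 1 divides a table by a constant, which can move this gap only through the 1 added to RPKM. With the values as deposited, the gap was 0.28 with a pseudocount of 0.1 and 0.057 with a pseudocount of 5. On the scale of log2(RPKM + 1), no order of the subunits held under all scalings. All 3 members above the median of all genes, RPL7L1, RPLP0 and 1 copy of RPL5, belong to the large subunit, as do 41 of all 73 members.

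The 12 members past the 2-fold limit were 6 of each subunit. In the small subunit, RPS29 (ENSDARG00000041232) was at 23.9 RPKM in the earlier table and 7.71 RPKM in the later, a difference of -1.52. RPS28 was at 7.91 and 2.26 RPKM (-1.45), and both of these small proteins belong to the head of the subunit. The others were both copies of RPS26, RPS21 at 12.6 and 5.41 RPKM, and rps27.1 at 26.8 and 12.3 RPKM. In the large subunit, RPL38 (ENSDARG00000006413), known in mice for selective translation of Hox mRNAs, was at 30.3 and 11.6 RPKM (-1.31). RPL39, a very small protein that lines the peptide tunnel, was at 8.75 and 3.48 RPKM (-1.12), and RPL37 at 10.1 and 4.21 RPKM (-1.09). RPL30 (24.5 and 11.3 RPKM), RPL22L1 (10.8 and 4.70 RPKM) and RPL35A (6.87 and 2.91 RPKM) were close to the limit, with differences of -1.05, -1.05 and -1.01. All 12 had a negative difference under each of the 5 scalings, as had 31 members in all. For the 12 this followed from their choice. Only the equal sum raised their differences, and by too little to change a sign (RPL35A from -1.01 to -0.68). With the equal sum, 31 of 73 members had a negative difference, where 78.0% of all genes had a positive one. The share of all genes that stayed negative under all 5 scalings was not computed.

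The most positive differences were found in genes of both subunits, where 41 of all 73 members belong to the large subunit. RPL7L1, a relative of RPL7 that is known in ribosome assembly, was at 8.21 and 16.5 RPKM in the earlier and later table, a difference of 0.93. RPLP0, the base of the acidic stalk, was at 2.39 and 5.19 RPKM (0.87), and was the single member with a positive difference under all 5 scalings. The copies of RPL5 (0.77 and 0.59), RPL9 (13.1 and 20.7 RPKM, 0.62), RPS9 (23.6 and 34.0 RPKM, 0.51), rps19bp1 (12.7 and 18.3 RPKM, 0.50) and RPS2 (15.3 and 21.8 RPKM, 0.48) complete the 8 most positive differences. Of these 8, only RPLP0, RPL7L1 and the RPL5 copy at 0.77 exceeded the median difference of all genes. The gene rps19bp1 encodes a binding protein of RPS19 and no part of the ribosome. It and 4 genes of the like type entered through their symbols, and without these 5 genes the median difference of the other 68 was -0.24.

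By place in the ribosome, 3 of 6 groups held members with differences of both signs and 3 of 1 sign only, with the values as deposited. The acidic stalk recruits elongation factors to the large subunit, and its genes had unequal levels. RPLP1 was at 46.3 and 41.2 RPKM in the earlier and later table and rplp2l at 88.6 and 73.5 RPKM, whereas RPLP0, which anchors them, was at 2.39 and 5.19 RPKM, lower than RPLP1 by 19.4-fold and 7.94-fold. RPL12, which sits at the stalk's base, was at 23.4 and 29.4 RPKM. With the values as deposited, the tip genes RPLP1 and rplp2l had negative differences and the base genes positive ones. With an equal sum RPLP1 (0.23) and rplp2l (0.14) turned positive, and with the median ratio set to 1 RPL12 (-0.66) turned negative, so of these 4 only RPLP0 kept its sign.

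RPL5 and RPL11 bind the 5S ribosomal RNA and, outside the ribosome, the p53 regulator MDM2. RPL11 was at 13.3 and 13.6 RPKM in the earlier and later table. The RPL5 copies were at 38.0 and 65.5 RPKM (ENSDARG00000015862) and at 13.0 and 20.1 RPKM (ENSDARG00000020197). None of the 3 genes had a negative difference with the values as deposited, where 27.0% of all genes had. All 3 had a negative one with the median ratio set to 1, where 45.9% of all genes had a positive one.

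Of 7 genes for proteins on the peptide exit side, 4 had a negative difference and 3 a positive one, against 27.0% and 73.0% of all genes. RPL35 (101 and 115 RPKM), RPL19 (19.0 and 25.9 RPKM) and RPL4 (11.5 and 16.0 RPKM) had differences of 0.19, 0.43 and 0.45. RPL39, RPL31 (9.09 and 4.82 RPKM), RPL23A (21.8 and 17.1 RPKM) and RPL17 (7.09 and 7.004 RPKM) lay at -1.12, -0.79, -0.33 and -0.02. In the small subunit, RPS2 and RPS9 of the mRNA entry side were both higher in the later table as deposited, as were 73.0% of all genes. Both lay under the median difference of all genes, and both were at -0.48 with the median ratio set to 1. RPS23 (7.35 and 4.95 RPKM) and RPS15 (29.7 and 20.2 RPKM) of the decoding centre were both lower as deposited, as were 27.0% of all genes. On the mRNA exit side, RPS28 and both RPS26 copies were more than 2-fold lower, where 10.9% of all genes were at least 2-fold lower. RPS14 was level (-0.04).

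A graded pattern went with the number in the gene symbol, and it was looked for after the values had been seen. Ribosomal proteins were numbered from their places on gels, so that within each subunit a higher number tends to belong to a smaller protein. Protein and transcript lengths themselves were not used here. Across 38 numbered large subunit genes, the Spearman correlation of the number with the difference was -0.79 (Pearson -0.79), and across 32 small subunit genes -0.66 (Pearson -0.65). These correlations describe genes of the same 2 tables, which are not independent. The Spearman correlation of the number with the level was 0.02 and 0.12 for the large and small subunit in the earlier table and -0.41 and -0.23 in the later.

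In steps of the number, the median difference was 0.21 for the 22 genes numbered up to 10, -0.30 for the 19 genes from 11 to 20, -0.65 for the 20 genes from 21 to 30 and -0.81 for the 9 genes from 31 to 39, all of which belong to the large subunit. Differences above 0 were found in 16 of 22, 5 of 19, 2 of 20 and 1 of 9, against 73.0% of all genes. The share among genes numbered up to 10 thus lay near that of all genes. None of the 41 genes numbered up to 20 was at least 2-fold lower in the later table with the values as deposited or with an equal sum. Of all genes, 10.9% and 8.10% were. However, 17 of the 41 were with the median ratio set to 1, 12 after quantile normalization and 11 with an equal sum without the 100 highest genes. Of all genes, 19.0%, 15.6% and 19.4% were. With the median ratio set to 1 the 4 medians were -0.65, -1.07, -1.57 and -1.70, so their order was kept while the sign of the first turned. The order of the 4 medians was the same under each of the 5 scalings. Except for quantile normalization, the alternative scalings multiply a whole table by a constant, so they could hardly change this order.

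Genes that departed from the gradient can be named. RPL35, at 101 and 115 RPKM, was the only gene numbered above 30 with a positive difference. RPL21 (0.25) and rps27a (0.36) were the only positive ones from 21 to 30. The gene rps27a, at 27.9 and 36.2 RPKM in the earlier and later table, encodes a fusion of ubiquitin with a small subunit protein. In the other direction, RPL10 (6.81 and 4.503 RPKM, -0.51) and RPL10A (22.7 and 19.6 RPKM, -0.20) were the large subunit genes numbered up to 10 with a negative difference. In the mitochondrial ribosome, whose proteins are in part numbered after those of bacteria, the Spearman correlation of the number with the difference was -0.20 over 38 large and 0.10 over 21 small subunit genes.

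**Figure D3:**
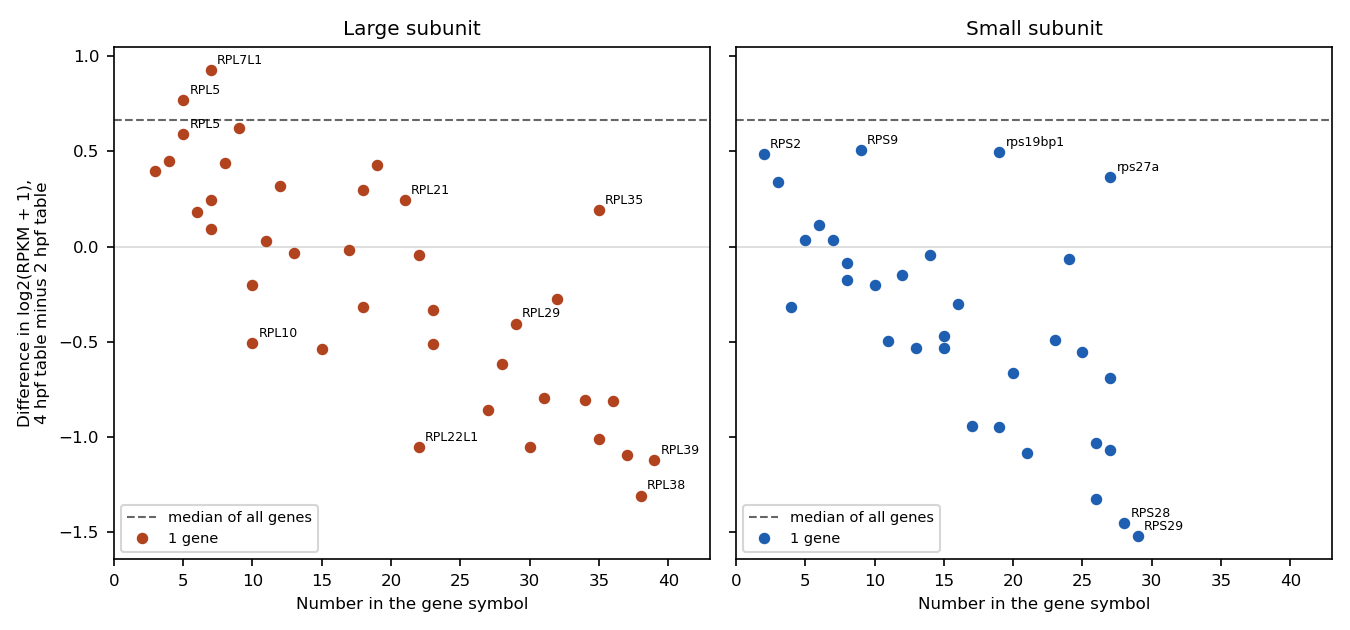
Difference in log2(RPKM + 1), later minus earlier table (vertical axis), against the number in the gene symbol (horizontal axis) for 38 large and 32 small subunit genes, 1 point per gene, with the median of all 13341 genes (0.66) dashed. Points slope downward in both panels (Spearman correlation -0.79 and -0.66), with RPL35 and rps27a above the trend.

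Copies and close relatives of a gene gave like or unlike values, and how the authors' counting treated reads common to near-identical copies is unknown. The RPS26 copies were at 10.01 and 4.38 RPKM (ENSDARG00000030408) and at 3.66 and 0.862 RPKM (ENSDARG00000037071), and both were more than 2-fold lower in the later table. The pair rps27.1 and rps27.2 had 26.8 and 17.7 RPKM in the earlier table and 12.3 and 10.6 RPKM in the later. RPL22, at 12.5 and 12.1 RPKM, and its paralog RPL22L1, at 10.8 and 4.70 RPKM, were near each other in the first table and apart in the second. RPL7, at 18.0 and 21.5 RPKM, and RPL7L1, at 8.21 and 16.5 RPKM, drew nearer.

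Ribosomal proteins with symbols outside the rule included faub, RACK1 and RPSA2. The gene faub, a ubiquitin-like fusion with a small subunit protein, was at 12.7 RPKM in the earlier and 20.6 RPKM in the later table (0.65). RACK1, a scaffold on the small subunit's head, was at 8.12 and 9.84 RPKM, and RPSA2, named for the laminin receptor protein of the small subunit, at 8.20 and 8.34 RPKM. All 3 had differences below the median of all genes with the values as deposited.

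Many ribosomal protein genes hold genes of small nucleolar RNAs (snoRNAs), which guide the modification of ribosomal RNA, within their introns. In RefSeq's gene table, of an assembly other than that of the tables, 17 of 64 members with a matching symbol held at least 1 snoRNA gene within their span. These 17 had a median difference of -0.03 and a median level of 16.2 RPKM in the earlier table, and the 47 others had -0.30 and 13.3 RPKM. The 4 highest members, RPS14, RPL21, RPL6 and RPL35, were among the 47.

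Other gene groups of protein synthesis lay closer to the median of all genes. Their counts, with the values as deposited, stand against 27.0% of all genes with a negative difference, 10.9% at least 2-fold lower and 33.0% at least 2-fold higher. Of 59 mitochondrial ribosomal protein genes, which serve the separate ribosome of mitochondria, 10 had a negative difference, 1 was at least 2-fold lower and 9 at least 2-fold higher in the later table. Their median of 0.57 was 0.09 under that of all genes and at most 0.19 under it over the 5 scalings. Their level was lower than that of the cytosolic genes, with a median of 3.25 RPKM in the earlier table and 4.11 RPKM in the later, and mrps31 led with 14.7 and 47.9 RPKM. Of 67 genes of ribosome biogenesis, which make and assemble ribosomal subunits in the nucleolus, 32 were at least 2-fold higher and 1 at least 2-fold lower, with a median of 0.97. With the median ratio set to 1, none of these 67 was at least 2-fold higher and 5 were lower, against 2.60% and 19.0% of all genes. The lack of higher ones then lay near the background. After quantile normalization 2 were at least 2-fold higher and 4 lower, against 10.3% and 15.6% of all genes. The nucleolin gene ncl was at 311 and 934 RPKM and the pseudouridine synthase gene DKC1 at 208 and 491 RPKM.

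Elongation and release factor genes by symbol, 9 in number, had a median of 0.58, with 2 at least 2-fold higher and none lower. One of the 9, EEF1E1 (-0.19), is in the list by its symbol and is no elongation or release factor. EEF1G was at 122 and 262 RPKM and eef1a1l1, which brings aminoacyl-tRNA to the ribosome, at 64.1 and 65.2 RPKM. Of 15 other genes that are known for TOP mRNAs, mostly from mammals, 2 had a negative difference and 4 were at least 2-fold higher, with a median of 0.36. Among them the poly(A)-binding protein gene pabpc1a was at 178 and 361 RPKM, nap1l4a at 37.4 and 160 RPKM, and TPT1 at 44.6 and 57.3 RPKM. The 36 genes with symbols of the proteasome, another large complex, had a median of 0.90, with 16 at least 2-fold higher and none lower. With the median ratio set to 1, none of the 36 was higher and 2 were lower, against 2.60% and 19.0% of all genes. Among the 36 are PSMC3IP, which is no subunit and is known in meiotic recombination, and the assembly chaperones PSMD5, PSMD9 and PSMD10. Without these 4 genes the median was 0.85 and 13 of 32 were at least 2-fold higher. With the median ratio set to 1, the medians of the ribosomal protein genes, elongation and release factors, other TOP genes, mitochondrial ribosomal proteins, proteasome and biogenesis genes were -1.10, -0.33, -0.38, -0.24, -0.03 and 0.01.

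**Figure D4:**
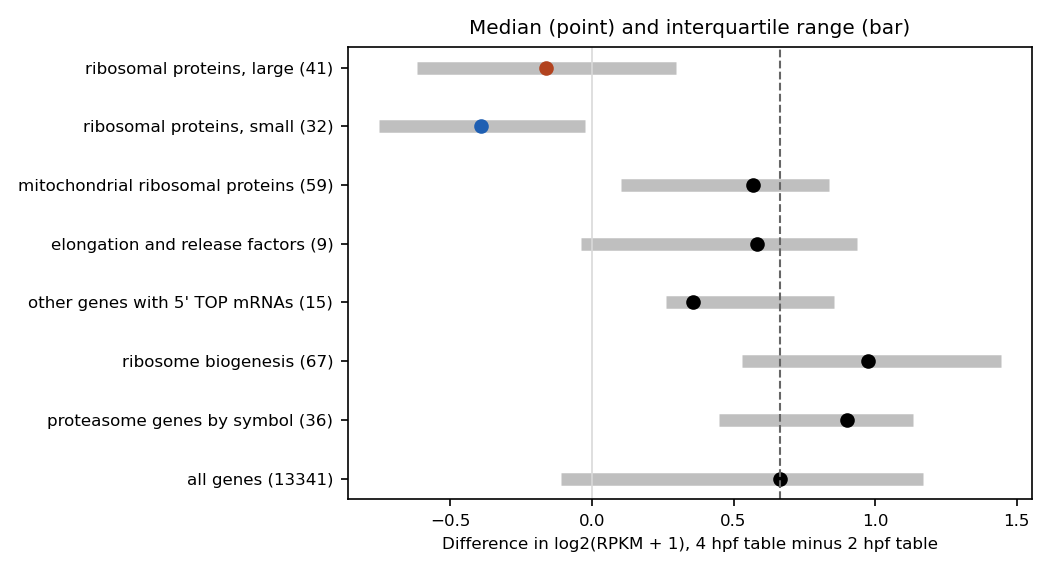
Median (point) and interquartile range (bar) of the difference in log2(RPKM + 1), later minus earlier table, for the ribosomal protein genes by subunit, 5 other gene groups and all genes, with the number of genes in parentheses and the median of all genes dashed. The ribosomal protein medians of -0.16 and -0.39 are the 2 lowest shown, and the other groups lie between 0.36 and 0.97.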

How the data were processed

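RNA recovered from zebrafish embryos with anti-FLAG beads was sequenced in 4 samples, 2 at each age. The authors deposited 1 table of RPKM values per age, without a header, and the only sign that a value is a mean of replicates is the name of the table. The submitters' processing notes name TopHat2 2.1.1, Bowtie, Trimmomatic 0.36, cutadapt 1.13, bedtools 2.16.2 and MACS2 2.0.10, and build Zv9. No role is stated for any tool, and the annotation, the counting and the total behind RPKM are not given either. Since RPKM divides by a total, entries that take many reads lower the values of all others.

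A reference table of Ensembl IDs named 20039 of 27205 IDs (73.7%). It places 10 further ribosomal protein genes, among them rps3, RPL13 and rplp2, on IDs listed in neither table, and these were not analysed here. A gene in 1 table only was taken as 0 in the other. Differences of log2(RPKM + 1) were computed over the 13341 genes that reached 1 RPKM in 1 table or both (Python 3.11.15, pandas 2.3.3), and a call was an absolute difference of at least 1. No test was possible. Alternatives were other pseudocounts (0.1 and 5), filters (none and 5 RPKM), 4 scalings, a 4-fold limit, and other choices of members or IDs. The calculation was tested on simulated data. No protein or promoter sequence was used here. The snoRNA comparison used the RefSeq table of GRCz12tu for neighbourhood only, and left out symbols on several IDs.

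Members and lists were chosen with earlier results of these data known. Named genes were the 8 highest members, the 8 most negative and 8 most positive differences, those nearest 1 RPKM, stalk genes, paralogs, up to 3 genes per place in the ribosome and up to 2 per other list. The other members past the 2-fold limit, TPT1, the full peptide exit group, the reduced proteasome list and the departures from the number gradient were chosen after their values were seen. Single values of a few genes are not reported here, though counts and medians include them.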

Additional observations from a re-analysis of the deposited data

How the results depend on the processing

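No paired analysis was possible because the replicates of an age come as 1 mean per gene, which also leaves no replicate to take out. The depth, the replicate spread and the background of the precipitate are unknown, which limits every value. Without replicates, a median was counted as moved at a shift of 0.25 and a correlation at 0.1, limits chosen here. Against 12 members at least 2-fold lower in the later table, there were 2 with a pseudocount of 5, 3 after rescaling to an equal sum, 43 with the median ratio set to 1, 38 after quantile normalization, 36 with an equal sum without the 100 highest genes, and 0 at a 4-fold threshold. Of all 13341 genes, 371 were lower with a pseudocount of 5 and 342 at a 4-fold threshold. Both counts of members thus lay near the background. The shares of all genes were 8.10% with an equal sum, 19.0% with the median ratio set to 1 and 15.6% after quantile normalization. Without the 100 highest genes the share was 19.4%. Against 0 at least 2-fold higher, there was 1 with a pseudocount of 0.1 and 4 after rescaling to an equal sum. Of all 13341 genes, 6088 and 48.1% were at least 2-fold higher there. The median difference of -0.26 was 0.12 with an equal sum, -1.10 with the median ratio set to 1, -1.07 after quantile normalization and -0.98 without the 100 highest genes. The median of large minus that of small subunit genes, 0.23, was -0.056 with the median ratio set to 1 and -0.053 after quantile normalization, and 0.42 without genes of the like type and rps19bp1. The median of all genes, 0.66, was -0.075 with the median ratio set to 1. The gap of the members' median to that of all genes, -0.93 as reported, shrank to -0.32 when no low values were left out and to -0.49 at a pseudocount of 5, and widened to -1.22 with a filter of 5 RPKM and to -1.29 after quantile normalization. Members at least 2-fold below that median, 31 as reported, numbered 9 with a pseudocount of 5, 12 without a filter, 48 after quantile normalization and 2 at a 4-fold threshold. As reported, 21.2% of all genes lay at least 2-fold below it, and this share was not computed for the other settings. The correlation of number and difference stayed between -0.78 and -0.80 in the large and between -0.64 and -0.71 in the small subunit. This was over 12 settings, which were run for it after the data were seen. A 4-fold limit cannot affect this correlation, and scaling a table by a constant hardly can. Keeping 1 ID per symbol or only genes listed in both tables moved none of the counts above by over 1.5 times.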

Other observations

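The S6 kinase genes, which the symbol rule leaves out, encode kinases of which some phosphorylate the ribosomal protein RPS6. All 8 of them with at least 1 RPKM were higher in the later table, 4 of them at least 2-fold, with a median difference of 1.05, where 73.0% of all genes were higher and 33.0% at least 2-fold. The highest, rps6kb1b, was at 12.3 RPKM in the earlier table and 24.3 RPKM in the later, and RPS6KA1 was at 2.33 and 12.1 RPKM. RPS6 itself was at 13.4 and 14.5 RPKM. With the median ratio set to 1, 4 of the 8 kinase genes had a positive difference, near the 45.9% of all genes. Their median was then 0.08, against -0.82 for RPS6.

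A list of 15 genes was drawn up for chaperones, importers and kinases of ribosomal proteins, and it shares members with the S6 kinases. All 15 had a positive difference and 8 were at least 2-fold higher, against 73.0% and 33.0% of all genes. A direct action on ribosomal proteins is not established for AAR2 (1.92), ZNF622 (1.33) and RPS6KA4 (1.72), which are all among the 8. With the median ratio set to 1, 9 of the 15 had a positive difference and 3 were at least 2-fold higher, against 45.9% and 2.60% of all genes. GRWD1, a chaperone of RPL3, was at 23.0 and 86.7 RPKM in the earlier and later table, against 19.8 and 26.4 RPKM for RPL3. HEATR3, known in nuclear import of RPL5 and RPL11, was at 5.33 and 24.7 RPKM. The chaperone gene tsr2, whose product binds RPS26, was at 28.5 and 52.3 RPKM, against 10.01 and 4.38 RPKM for the higher RPS26 copy. HEATR3 and tsr2 were named after their values were seen.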
